A study of Mus musculus with 3 samples.

Results

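The TRIM (tripartite motif) ubiquitin ligase family was taken as every annotated gene whose symbol is Trim, a number and at most 1 letter, with at least 20 unique molecular identifiers (UMIs, the tags that mark single captured transcripts) over the selected cells. Of the 68 symbols, 46 passed this minimum, among 15154 genes that passed it of 32285 annotated. The last symbols to pass were *Trim50* with 21 UMIs and *Trim46* with 26, and the first to miss it were *Trim72* with 12 and *Trim43b* with 7. *Trim12a*, *Trim46*, *Trim50*, *Trim43c* and *Trim66* would have missed the minimum without the library in which each was highest.

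The cells were bone marrow derived macrophages (BMDMs), grown for 8 days with L929 cell conditioned medium from the marrow of female C3H/HeN mice, 6 to 8 weeks of age. UI is the library of PBS-treated cells, LP1 that of cells given 1 µg/mL of purified lipoproteins of *Borrelia burgdorferi* (*Bb*LP) for 1 hour, and LP4 that of cells given the same dose for 4 hours. Per the study's methods, UI cells were collected at 4 hours, and each condition was captured as 1 pool of the cells of 3 wells. Each condition is therefore 1 library, the spread between cultures was not measured, and no test between conditions was made. All intervals below are at the 95% level and cover counting error only.

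TRIM proteins share a RING finger, B-box zinc fingers and a coiled coil, and most of them use the RING to attach ubiquitin to other proteins. Their last domain, most often a PRY-SPRY fold, selects the target. Several are known from antiviral defence and from the control of signalling below Toll-like receptors and the RNA sensor RIG-I, and a number of these are interferon-stimulated genes in macrophages. Others repress transcription in the nucleus, guide traffic along microtubules or act in muscle and nerve.

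Selected cells numbered 6071 for UI, 5065 for LP1 and 4670 for LP4, with 35688939, 52475723 and 61402275 UMIs. The median cell held 5133, 9343 and 11784 UMIs. Levels are UMIs per 1000000 UMIs of the library (CPM), 1 tag per captured transcript 3′ end and not scaled for transcript length. Defining macrophage genes were present in every library, with *Csf1r* at 769, 522 and 421 CPM in UI, LP1 and LP4, and the summed level of 10 macrophage genes was 11899 to 12431 CPM. Most of this sum was *Lyz2*, at 9209, 9684 and 8716.5 CPM, and the macrophage genes did not move as 1 set. *Cd14* (291 CPM in UI and 1399 CPM in LP4), *Fcgr1*, *Mrc1*, *Itgam* and *Adgre1* were higher in LP4 than in UI. *Csf1r*, *Cd68*, *Mertk*, *C1qa* (70.6 and 26.7 CPM) and *Lyz2* were lower. Summed neutrophil genes were at 390, 291 and 564 CPM, dendritic cell genes at 151 to 154 CPM, cycling genes at 708, 858 and 869 CPM, stromal genes at 3.70, 4.86 and 17.4 CPM, B cell genes at 0.504 to 0.705 CPM and T cell genes at 0.0326 to 0.112 CPM, with *Cd3e* at 0. The part of these other cells in the differences below was not tested, beyond the values by cell cluster. The neutrophil genes did not move as 1 set. *S100a9* (139 CPM in UI and 264 CPM in LP4), *S100a8*, *Lcn2*, *Ngp* and *Camp* were higher in LP4 than in UI. *Retnlg*, *Ly6g*, *Ltf*, *Elane* and *Mpo* (5.97 and 5.55 CPM) were lower. At most 9 cell barcodes were shared by any pair of libraries.

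After 4 hours of *Bb*LP, TRIM transcripts took a larger share of the RNA. The 46 members summed to 775 CPM (766 to 784) in UI, 744 CPM (736 to 751) in LP1 and 1515 CPM (1506 to 1525) in LP4. The 15 members that were at least 2-fold higher in LP4 than in UI, and which were thus bound to rise together, summed to 287, 255 and 1066 CPM, and the other 31 to 489, 489 and 449 CPM. *Trim25* gave the most TRIM UMIs in each library (17.5%, 15.9% and 28.1% of them) and *Trim30a* the second most (10.4%, 10.6% and 18.2%). The third was *Trim35* in UI and LP1 and *Trim30c* in LP4, where *Trim30c* gave 6.72% of TRIM UMIs.

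In LP4 against UI, 15 of 46 members (32.6%) were at least 2-fold higher, against 11.7% of all genes tested. At least 2-fold lower were 7 members (15.2%), against 17.0% of all genes. Flat, meaning that the whole interval of the log2 ratio lay within 0.5 of 0, were 8 members (17.4%), against 25.0% of all genes, and 16 members met none of these limits. The median log2 ratio was -0.08 over the members and -0.16 over all genes tested. Scaling by the median of ratios moved the median of all genes up by 0.21 and TMM scaling moved it by 0.17, and the split of all genes became 15.3% higher and 12.8% lower under the first and 14.3% and 13.4% under the second.

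**Figure D1:**
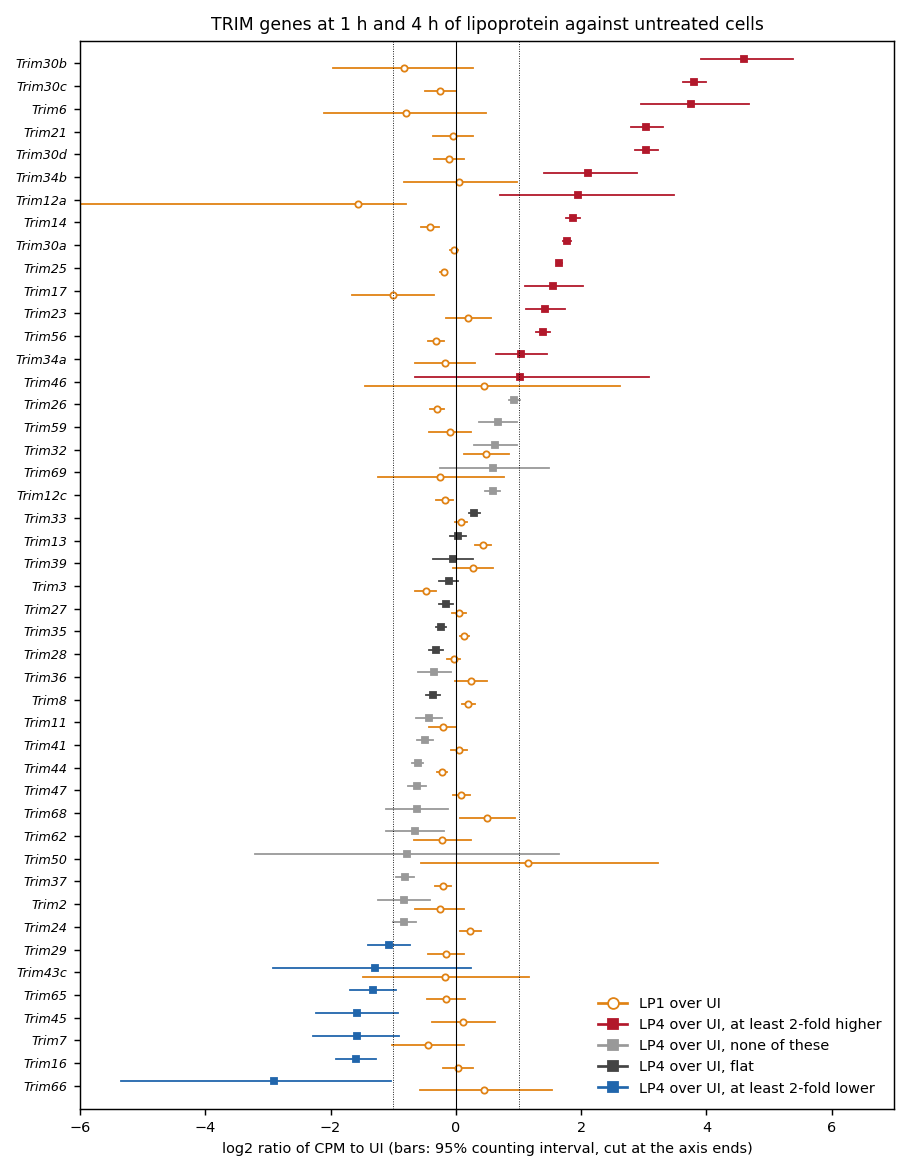
Log2 ratio of CPM to UI for each of the 46 TRIM genes (rows), in LP1 (open circles) and LP4 (filled squares, coloured by the size of the LP4 ratio), with bars for 95% counting intervals and dotted lines at 2-fold. In LP4, 15 genes lie at or beyond 2-fold higher and 7 at or beyond 2-fold lower, while in LP1 3 genes lie at or beyond 2-fold in either direction. The LP1 circle of *Trim12a*, with 0 UMIs in LP1, is drawn with 3 counts in place of 0.

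Some of the members past 2-fold act in the sensing of foreign RNA or DNA. Examples are *Trim25*, *Trim14* and *Trim56*, at least 2-fold higher in LP4 than in UI, and *Trim65*, at least 2-fold lower. No list of such members was set, so other members with this role, past 2-fold or under it, are not counted here. *Trim25*, whose product ubiquitinates RIG-I and is also a ligase for the ubiquitin-like ISG15, lies on chromosome 11 (88999376 to 89020293, plus strand). It was at 135 CPM (132 to 139) in UI, 118 CPM (115 to 121) in LP1 and 426 CPM (421 to 431) in LP4. LP4 was 3.14-fold above UI, a log2 ratio of 1.65 (1.61 to 1.70), and the intervals of LP4 and of the other libraries did not overlap.

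*Trim14*, which has no RING and is known as an adaptor of the mitochondrial protein MAVS, was at 20.1, 15.0 and 73.3 CPM in UI, LP1 and LP4. Its log2 ratio of LP4 to UI was 1.87 (1.76 to 1.98). *Trim56*, a ligase that acts in the STING and TLR3 pathways, was at 24.1, 19.3 and 63.1 CPM, with a log2 ratio of 1.39 (1.28 to 1.5). Both were high in LP4 alone, and both were lower in LP1 than in UI, by log2 ratios of -0.42 (-0.56 to -0.27) for *Trim14* and -0.32 (-0.45 to -0.18) for *Trim56*.

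*Trim21*, the cytosolic antibody receptor that marks antibody-coated particles for the proteasome, lies on chromosome 7 (102557921 to 102565486, minus strand), apart from the cluster described next. It was at 3.87 CPM (3.25 to 4.57) in UI, 3.73 CPM (3.23 to 4.30) in LP1 and 31.8 CPM (30.4 to 33.2) in LP4, a log2 ratio of 3.04 (2.79 to 3.30). *Trim23*, which carries a GTPase domain of the ARF type and acts in NF-κB activation, was at 2.97, 3.39 and 7.96 CPM, a log2 ratio of 1.42 (1.12 to 1.74). UI and LP1 were close to each other for both genes, and LP4 stood above them.

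A run of TRIM genes on chromosome 7 held 8 of the 15 higher members. The cluster spans 289 kb (GRCm38, 104218793 to 104507849) and holds 10 TRIM symbols, of which 9 were members, together with 2 other genes that did not reach 20 UMIs. From its start lie *Trim6*, *Trim34a*, *Trim5*, *Trim12a*, *Trim34b*, *Trim12c*, *Trim30b*, *Trim30c*, *Trim30a* and *Trim30d*. *Trim6*, *Trim34a* and *Trim34b* are read from the plus strand and the others from the minus strand. Of the 9 members, 8 were at least 2-fold higher in LP4 than in UI, and of the 37 members elsewhere 7 were, against 11.7% of all genes tested. *Trim12a* is among the 8 and *Trim46* among the 7, and both passed the minimum of 20 UMIs only through LP4.

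The 4 *Trim30* genes lie side by side at its end. *Trim30a* encodes the best known of them, an interferon-inducible protein that restrains NF-κB signalling below Toll-like receptors. It was at 80.6 CPM (77.7 to 83.6) in UI, 78.8 CPM (76.5 to 81.3) in LP1 and 275 CPM (271 to 280) in LP4, a log2 ratio of 1.77 (1.72 to 1.83). Its neighbours began lower and differed more. *Trim30c* was at 7.29 CPM (6.43 to 8.23), 6.14 CPM (5.48 to 6.84) and 102 CPM (99.3 to 104), a log2 ratio of 3.81 (3.63 to 3.99). *Trim30d* was at 7.26 CPM (6.40 to 8.2), 6.73 CPM (6.04 to 7.47) and 59.5 CPM (57.5 to 61.4), a log2 ratio of 3.03 (2.85 to 3.22). *Trim30b* had 17 UMIs in UI, 14 in LP1 and 710 in LP4 (0.476, 0.267 and 11.6 CPM), the highest ratio of the family at 4.6 (3.91 to 5.39), and its ratio of LP1 to UI was -0.84 (-1.97 to 0.27). LP4 was far above the other libraries for all 4, UI and LP1 lay close together for *Trim30a*, *Trim30c* and *Trim30d*, and the ratio of *Trim30c* exceeded that of *Trim30d* and *Trim30a* beyond the counting intervals.

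Apart from *Trim12c*, the other genes of the cluster were shallower. *Trim6*, a ligase that builds free ubiquitin chains in interferon signalling, had 13, 11 and 300 UMIs in UI, LP1 and LP4, a log2 ratio of 3.75 (2.95 to 4.67). *Trim34b* had 19, 29 and 141 UMIs (2.11, 1.41 to 2.88) and *Trim34a* 67, 87 and 237 UMIs (1.04, 0.64 to 1.45). *Trim12a*, *Trim12c* and *Trim5* are mouse relatives of the retrovirus restriction factor TRIM5. *Trim12a* had 6, 0 and 40 UMIs, a log2 ratio of LP4 to UI of 1.95 (0.71 to 3.48). *Trim12c*, the most abundant of them, was at 21.2 CPM (19.7 to 22.8), 18.7 CPM (17.6 to 19.9) and 31.8 CPM (30.4 to 33.2), a ratio of 0.58 (0.46 to 0.71) that stayed under 2-fold. *Trim5* had 4, 0 and 2 UMIs and is no member.

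**Figure D2:**
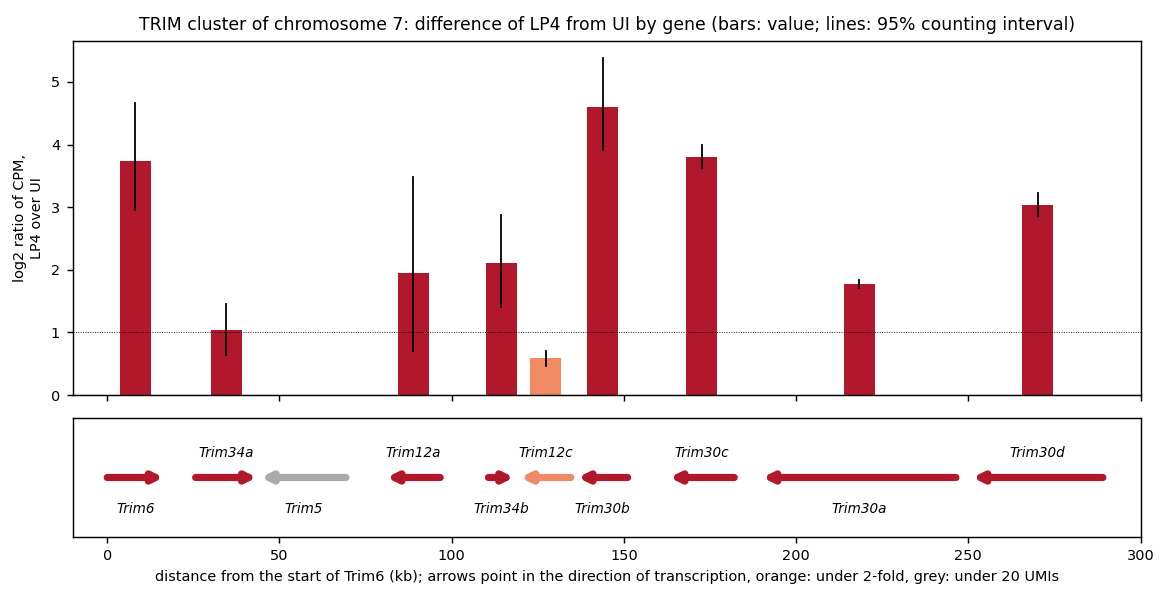
The TRIM cluster of chromosome 7: the log2 ratio of CPM of LP4 over UI for each member (upper panel, bars from 0 with lines for 95% counting intervals, dotted line at 2-fold) above the extent and direction of each gene in kb from the start of *Trim6* (lower panel). The values run from 0.58 for *Trim12c*, the only member under 2-fold, to 4.6 for *Trim30b*, and *Trim5* (grey), which is no member, is drawn without a ratio.

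Some genes of this cluster are copies of each other, so reads could be assigned to the wrong copy or dropped. In the last 500 bases of the longest coding transcript, where this chemistry reads, *Trim34b* shared 44.3% of its stretches of 50 bases with *Trim34a*, *Trim12c* shared 7.76% with *Trim5* and *Trim30c* shared 0.443% with *Trim30d*. *Trim30a*, *Trim30b*, *Trim30d*, *Trim6*, *Trim34a* and *Trim12a* shared none with any other gene. The value of *Trim34b* is therefore uncertain as to copy. Outside the cluster, the same holds for *Trim43c*, which shared 35.5% with *Trim43a* and *Trim43b*. Reads came from C3H/HeN cells and were counted on the reference genome, and what strain differences in this cluster do to the counts was not tested.

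The sequences just upstream of the *Trim30* genes are shown because members of the cluster moved together. RefSeq promoters on GRCm38.p6 were at hand for 33 of the 46 members and 13 of the 15 higher ones. The 250 bases before each start were searched on both strands for the interferon-stimulated response element (ISRE) written as GAAA, any pair of bases and GAAA, for the interferon gamma activated site (GAS) written as TTCNNNGAA and for a κB site written as GGGA, any pair of bases and TTCC. The ISRE letters were found for *Trim30a* and *Trim30d* among the higher members and for *Trim12c* and *Trim26* among the other 20. They were in 3.40% of the 11203 tested genes with a promoter and in 2.98% of all 32851 promoters. The lines give the gene's strand, 5′ to 3′, with the match in capitals, which here reads as the reverse complement of the motif.
Trim30a, chr7:104465200-104465249, minus strand: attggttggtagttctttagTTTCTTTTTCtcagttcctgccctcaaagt
Trim30d, chr7:104507861-104507910, minus strand: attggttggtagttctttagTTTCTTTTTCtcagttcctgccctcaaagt
Trim12c, chr7:104353350-104353398, minus strand: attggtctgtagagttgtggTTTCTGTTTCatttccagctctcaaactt
Trim26, chr17:36836972-36837021, plus strand: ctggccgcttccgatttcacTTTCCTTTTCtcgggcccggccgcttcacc

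The 50 letters shown are the same for *Trim30a* and *Trim30d*. The match began 36 bases before the start for *Trim30a*, 41 for *Trim30d*, 29 for *Trim12c* and 154 for *Trim26*, which holds another, overlapping match at 160. The 250 bases upstream of *Trim30a* and *Trim30d* were 89.0% identical and those of *Trim5* and *Trim12c* 81.1%. *Trim5*, which is no member and had 4, 0 and 2 UMIs in UI, LP1 and LP4, holds the same ISRE match as *Trim12c* in this window. RefSeq gives *Trim30a* a further start, whose 250 upstream bases were 60.3% identical to those of *Trim30d* and held no ISRE match. The GAS letters were found for *Trim30c*, *Trim46* and *Trim45* (7.19% of tested genes) and the κB letters for *Trim28* alone (1.46% of tested genes). The capitals in the *Trim30c* and *Trim28* lines mark these matches. A match of letters is no evidence of binding, and *Trim30c*, *Trim21* and *Trim25*, all higher in LP4, had no ISRE match in this window. The search took exact letters only, so a missing match does not show that no element is there. Where *Trim30a* and *Trim30d* have TTTCTTTTTC, *Trim30c* has ttcctttttc. The window of *Trim12a*, which had no match, ends in letters that in *Trim12c* lie just before the match. *Trim30b* had no ISRE match either, but its RefSeq start lies inside the gene as GENCODE gives it, so that its window is not upstream of the annotated gene. The same holds for the windows of *Trim45*, *Trim46* and *Trim28*, so their GAS and κB matches are not upstream of the annotated genes. The GAS match of *Trim30c* lies across the GENCODE start of that gene.
Trim30c, chr7:104400812-104400860, minus strand: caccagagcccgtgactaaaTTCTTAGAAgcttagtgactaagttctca
Trim28, chr7:13023956-13024005, plus strand: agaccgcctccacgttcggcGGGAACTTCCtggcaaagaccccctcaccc

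The remaining higher members were shallow. *Trim17*, known from neuronal cell death, had 49, 36 and 248 UMIs in UI, LP1 and LP4, a log2 ratio of LP4 to UI of 1.56 (1.11 to 2.03). *Trim46*, a microtubule organiser of the axon, had 4, 8 and 14 UMIs, and its interval (-0.65 to 3.09 around 1.02) included 0. *Trim46* was under 2-fold in 5 of the 8 alternatives that gave it a ratio and *Trim34a* in 3 of 9. Of members just under the limit, *Trim26*, a ligase that acts on IRF3 in the nucleus, was at 36.7 CPM (34.8 to 38.8), 29.8 CPM (28.3 to 31.3) and 70.0 CPM (68.0 to 72.2), a ratio of 0.93 (0.84 to 1.02) that passed 2-fold under TMM and median-of-ratios scaling.

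Flat in LP4 against UI were *Trim33*, *Trim13*, *Trim39*, *Trim3*, *Trim27*, *Trim35*, *Trim28* and *Trim8*, with log2 ratios from -0.36 (*Trim8*) to 0.29 (*Trim33*). *Trim28*, the corepressor KAP1 of KRAB zinc finger proteins, was at 33.9 CPM (32.0 to 35.8), 33.0 CPM (31.5 to 34.6) and 27.2 CPM (25.9 to 28.6). *Trim33*, a ligase of the TGF-β pathway with a PHD finger and a bromodomain like *Trim28*, was at 41.0, 43.2 and 50.3 CPM. *Trim35*, the deepest flat member, was at 67.3 CPM (64.7 to 70.1), 73.9 CPM (71.6 to 76.2) and 57.2 CPM (55.3 to 59.1). These genes moved by less than 1.5-fold in either direction, although intervals of UI and LP4 did not overlap for these 3. *Trim13*, bound to the endoplasmic reticulum, was at 20.3, 27.4 and 20.8 CPM, so that it was highest in LP1. The sign of *Trim3*, *Trim27* and *Trim39* changed with the scaling or cell weighting.

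**Figure D3:**
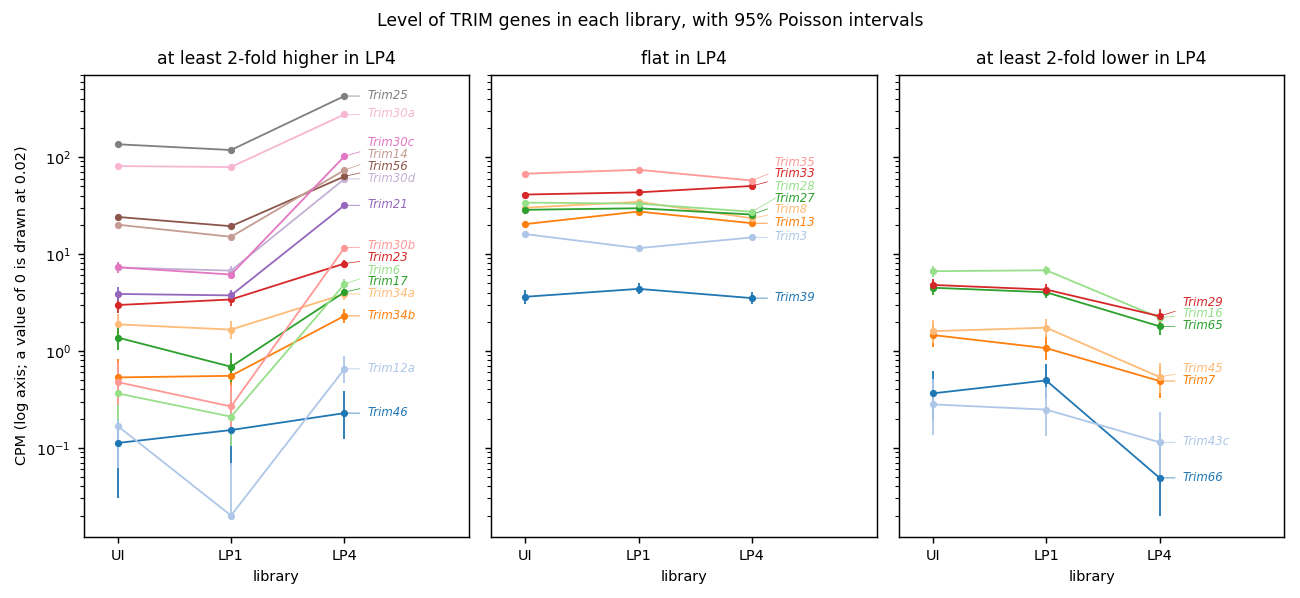
Level in CPM (log axis, 95% Poisson intervals) in UI, LP1 and LP4 for the members at least 2-fold higher in LP4 than in UI (left), flat (centre) and at least 2-fold lower (right). Each higher member has its highest level in LP4, up to 426 CPM for *Trim25*, and the flat members stay between 3.5 CPM and 73.9 CPM. *Trim12a*, with 0 UMIs in LP1, is drawn at 0.02.

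At least 2-fold lower in LP4 than in UI were *Trim29*, *Trim43c*, *Trim65*, *Trim45*, *Trim7*, *Trim16* and *Trim66*. *Trim16*, which lacks a RING and takes part in the autophagy of damaged lysosomes, was at 6.64 CPM (5.82 to 7.54) in UI, 6.78 CPM (6.10 to 7.53) in LP1 and 2.2 CPM (1.84 to 2.60) in LP4, a log2 ratio of -1.59 (-1.91 to -1.28). *Trim65*, a ligase for the RNA sensor MDA5, was at 4.48, 4.02 and 1.79 CPM, a ratio of -1.32 (-1.69 to -0.96). Both were at the same level in UI and LP1 within their intervals, and low in LP4. *Trim29*, at 4.79, 4.29 and 2.28 CPM, had a ratio of -1.07 (-1.40 to -0.74), which was under 2-fold with TMM and median-of-ratios scaling.

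The other lower members rest on few transcripts. *Trim45*, which ends in a filamin domain, had 57, 91 and 33 UMIs (-1.57, -2.24 to -0.93), and *Trim7*, a partner of glycogenin, had 52, 56 and 30 UMIs (-1.58, -2.28 to -0.90). *Trim66*, a relative of the nuclear repressors, had 13, 26 and 3 UMIs (-2.90, -5.35 to -1.04). *Trim43c* had 10, 13 and 7 UMIs, and its interval (-2.93 to 0.24 around -1.30) included 0. With a minimum of 200 UMIs only *Trim29*, *Trim65* and *Trim16* of these 7 were left.

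Each member was put in 1 domain class by its symbol, and no protein sequence was checked for the domains. Of the 26 members in the class listed as joining a RING to a PRY-SPRY end, 11 were at least 2-fold higher in LP4 (11.7% of all genes were), 3 were at least 2-fold lower and 3 were flat. This class holds all 9 members of the chromosome 7 cluster, of which 8 were higher, *Trim12a* with its few UMIs among them. Its higher members outside the cluster were *Trim21*, *Trim25* and *Trim17* alone, so the count for the class largely repeats that of the cluster. The class without a RING holds 5 members, among them *Trim14* and *Trim16*, which also end in a PRY-SPRY fold, and *Trim66*, which also has a PHD finger and a bromodomain. Of these 5, *Trim14* was higher, *Trim16*, *Trim29* and *Trim66* were lower, and *Trim44*, a regulator with a zinc finger like those of ubiquitin proteases, was at 59.4 CPM (56.9 to 62.0), 50.9 CPM (49.0 to 52.9) and 38.9 CPM (37.3 to 40.5), a ratio of -0.61 (-0.70 to -0.53). Of the 3 nuclear members with a RING, a PHD finger and a bromodomain, *Trim28* and *Trim33* were flat and *Trim24* had a ratio of -0.83 (-1.01 to -0.64). Of the 3 members with NHL repeats, *Trim3* was flat, and *Trim32* (0.63, 0.29 to 0.98) and *Trim2* (-0.83, -1.24 to -0.41) met no limit.

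Of the 2 members that end without a known domain, *Trim56* was higher and *Trim8* flat. Of the 2 anchored in membranes, *Trim13* was flat and *Trim59* had a ratio of 0.67 (0.37 to 0.97). The MATH protein *Trim37* had a ratio of -0.81 (-0.95 to -0.67), and *Trim36*, of the microtubule-binding class of *Trim46*, one of -0.34 (-0.61 to -0.08). None of the 4 symbols *Trim42*, *Trim54*, *Trim55* and *Trim63*, which were listed as 1 class, reached 20 UMIs.

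At 1 hour the family stood near UI. At least 2-fold higher in LP1 was 1 member (2.18% of all genes tested were), namely *Trim50*, which had 4 UMIs in UI and 13 in LP1. At least 2-fold lower were 2 members (4.47% of all genes), namely *Trim17*, at 49 and 36 UMIs, and *Trim12a*, at 6 and 0 UMIs, which gives a log2 ratio of -1.56 with 3 counts in place of 0 and an interval that ends at -0.79. Flat were 23 of 46 members, against 50.4% of all genes. The median log2 ratio was -0.10 over the members and -0.05 over all genes. Of the 15 members higher at 4 hours, 6 were flat at 1 hour (*Trim30c*, *Trim21*, *Trim30d*, *Trim30a*, *Trim25* and *Trim56*), 2 were at least 2-fold lower and none was at least 2-fold higher.

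Against LP1, 15 members were at least 2-fold higher in LP4 (11.0% of all genes tested), 9 were at least 2-fold lower (13.4%) and 7 were flat (31.4%). The comparison shares the LP4 library with the one against UI, so its agreement with that one is no separate evidence. *Trim26* was at 2.35-fold here, a log2 ratio of 1.23 (1.15 to 1.32), and *Trim46* (0.58, -0.77 to 2.04) was not past the limit. *Trim12a*, at 0 UMIs in LP1, was 11.4-fold higher in LP4 with 3 counts in place of 0, and the interval of the log2 ratio began at 3.15. *Trim24*, *Trim68* and *Trim50* were at least 2-fold lower in LP4 than in LP1 but not than in UI. *Trim24* was at 13.9, 16.3 and 7.82 CPM in UI, LP1 and LP4, *Trim68*, a Golgi-linked ligase, had 68, 141 and 76 UMIs, and *Trim50* 4, 13 and 4 UMIs.

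Other genes of these pathways were read from lists. Of 4 TRIM proteins with other names, *Mid2* did not reach 20 UMIs. *Pml*, the organiser of nuclear bodies, was at 15.8, 12.7 and 72.1 CPM in UI, LP1 and LP4 (log2 ratio of LP4 to UI 2.19, 2.06 to 2.32), and *Mefv*, which encodes pyrin, was at 8.74, 6.97 and 20.3 CPM (1.22, 1.04 to 1.40). *Mid1*, which binds microtubules, was at 5.44, 3.30 and 2.07 CPM (-1.39, -1.73 to -1.06). Of 10 genes of RIG-I and MAVS signalling, 4 were at least 2-fold higher in LP4 than in UI, against 11.7% of all genes. *Ifih1* (MDA5) went from 124 to 586 CPM, *Ddx58* (RIG-I) from 50.3 to 173 CPM and *Rnf135*, a RIG-I ligase, from 9.39 to 26.6 CPM. *Rnf125*, which marks RIG-I for destruction, had 11 and 126 UMIs.

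*Irf3* was at least 2-fold lower (13.7 to 6.43 CPM, log2 ratio -1.09, -1.29 to -0.90), and *Mavs* and *Tbk1* were flat. The median log2 ratio to UI of these 10 was 0.81 in LP4 (-0.16 over all genes) and -0.15 in LP1 (-0.05), where none was past 2-fold. A further list held 12 genes of the activating and conjugating enzyme families of ubiquitin and ubiquitin-like proteins. Of these, *Ube2w* (1.14), *Ube2e1* (1.10) and *Ube2n* (1.06) were at least 2-fold higher and none was at least 2-fold lower. Their median log2 ratio was 0.69, where over all genes 11.7% were higher and the median was -0.16.

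The cells fell into 9 clusters, made without any TRIM gene and lettered A to I by size, of which A to G had at least 50 cells in each library. A to E and I were macrophage-like and G dendritic cell-like by their markers. F was led by cell cycle genes such as *Hist1h1b* and *Aspm* and was left unnamed, and H, with 85 cells, was neutrophil-like. *Trim30b*, *Trim30c*, *Trim30d*, *Trim30a*, *Trim21*, *Trim14*, *Trim25* and *Trim56* were at least 2-fold higher in LP4 than in UI in 7 of 7 clusters, and *Trim6* and *Trim17* in the 6 of 7 that gave a ratio. The rest of the higher members did not hold in each cluster with a ratio. *Trim34b* (0.59 in E) and *Trim23* (0.63 in A) were past 2-fold in 5 of 6 such clusters, and *Trim34a* in 3 of 6. *Trim12a* was past it in 2 of 5 and *Trim46* in 0 of 2, with no interval above 0 for either. *Trim25* had ratios from 1.47 in G to 1.94 in F. The interval of F (1.77 to 2.12) lay above those of C (1.55 to 1.72), D (1.42 to 1.66) and E (1.33 to 1.63). *Trim26* was past 2-fold in 4 of 7 clusters, and its lowest ratio was 0.29 in E.

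For *Trim30c* the clusters differed more in UI than in LP4. It ran from 1.16 CPM (9 UMIs) in B to 22.6 CPM (158 UMIs) in A in UI, and in LP4 from 69.3 CPM in B to 157 CPM in G. Its ratio was smallest in A (2.74, 2.51 to 2.99) and largest in E (6.37, 5.14 to 7.99), where UI had 5 UMIs. The interval of E overlapped those of B (5.90, 4.97 to 7.03), D (5.00, 4.25 to 5.88) and F (5.00, 4.07 to 6.14). That of A overlapped the one of G (3.04, 2.07 to 4.20). *Trim12c* was likewise lowest in B and highest in A in UI (11.7 and 34.6 CPM), with a ratio of 0.11 in A and 1.18 in B. *Trim44* and *Trim24* were lower in LP4 in 7 of 7 clusters, with every interval below 0.

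Some members with small ratios had their highest levels in F, the cell cycle cluster. *Trim59* was at 22.7 CPM there in UI and 37.6 CPM in LP4, against 3.61 and 5.73 CPM over all cells. *Trim37*, which guards centriole number, was at 47.4 CPM in F in UI and 30.8 CPM in LP4. *Trim28* was at 53.9 and 41.7 CPM there. *Trim29* was highest in E, at 15.5 CPM in UI and 8.91 CPM in LP4.

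**Figure D4:**
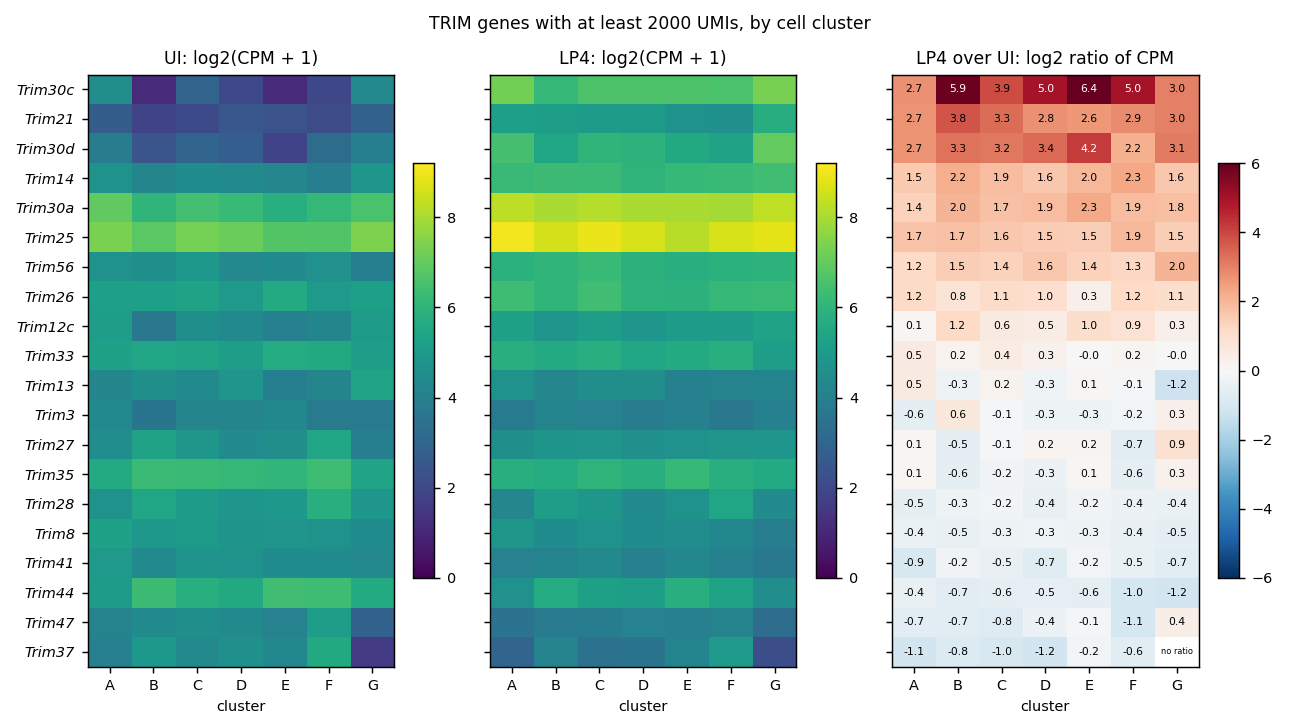
Level of the 20 TRIM genes with at least 2000 UMIs in clusters A to G, as log2(CPM + 1) in UI (left) and LP4 (centre) and as the log2 ratio of LP4 over UI (right, numbers in cells). The upper 7 rows, *Trim30c* to *Trim56*, are above 1 in each cluster, while the rows from *Trim33* down lie between -1.25 and 0.91, with no ratio where *Trim37* had too few UMIs.

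Shares of cells with a UMI were compared after thinning each cell to 2000 UMIs, which left out 122 (UI), 13 (LP1) and 45 (LP4) shallower cells. The median depth before thinning was 5194, 9353 and 11838 UMIs. It was 3947, 6261 and 9261.5 UMIs in the 21, 21 and 28 thinned neutrophil-like cells, which are given for comparison. These cells are no blank for free RNA. In LP4 *Trim33* was at 100 CPM in them against 50.3 CPM over all cells, while *Trim25* was at 66.8 against 426 CPM. *Trim25* was seen in 22.1% (21.0 to 23.1) of cells in UI, 19.8% (18.7 to 20.9) in LP1 and 54.4% (52.9 to 55.8) in LP4, against 14.3% (4.03 to 32.7) of neutrophil-like cells in LP4. Without thinning the shares were 46.0%, 57.4% and 93.1%. *Trim30a* was seen in 14.9%, 14.7% and 43.4% of thinned cells, against 7.14% (0.877 to 23.5) of neutrophil-like cells in LP4, and in 33.0%, 46.8% and 89.7% without thinning. The share of LP4 cells was above the neutrophil-like share for both genes, beyond the intervals. In UI both were within the intervals of the neutrophil-like cells (0.12 to 23.8 for *Trim25*, and 0 of 21 cells, which allows up to 16.1%, for *Trim30a*), as was *Trim30a* in LP1. With only 21 such cells these shares cannot be told apart from theirs.

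*Trim30c* was seen in 1.63% (1.32 to 1.99), 1.31% (1.01 to 1.66) and 16.6% (15.6 to 17.8) of thinned cells, and in 0 of 28 neutrophil-like LP4 cells, which allows up to 12.3%, while its UI and LP1 shares were under the 16.1% that 0 of 21 cells allows. Without thinning its shares were 3.54%, 4.44% and 53.8%. For *Trim14* and *Trim56* the LP4 shares of 13.0% and 11.9% were within the intervals of the neutrophil-like cells (17.9%, 6.06 to 36.9, and 7.14%, 0.877 to 23.5). With only 28 such cells these shares cannot be told apart from theirs. A thinned UI cell held a UMI of 1.42 members on average, an LP1 cell of 1.38 and an LP4 cell of 2.47. Of the 15 higher members, none was seen in 58.6% of the cells in UI, 62.7% in LP1 and 14.3% in LP4. These members were chosen for higher UMIs in LP4, so a fall in LP4 was bound to appear. Of the other 31 members, none was seen in 40.2%, 39.5% and 42.1% of the cells.

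Within LP4, cells were ranked by the share of their UMIs from 10 interferon-stimulated genes (*Isg15*, *Oasl1*, *Oas1a*, *Usp18*, *Irf7*, *Rsad2*, *Cmpk2*, *Ifit1*, *Ifit2* and *Ifit3*). These genes had a median log2 ratio of 3.53 in LP4 against UI, and 8 were at least 2-fold higher, while in LP1 all 10 were flat. The lowest, middle and highest tertiles held 1557, 1557 and 1556 cells, with median shares of 0.395%, 0.995% and 1.74% and median depths of 11188, 12844 and 11240.5 UMIs. The ranking is continuous, and 382 and 595 of the 4670 cells lay within 10% of the lower and upper limit.

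*Trim30c* was at 56.3 CPM in the lowest tertile, 94.1 CPM in the middle and 158 CPM in the highest, a log2 ratio of highest to lowest of 1.49 (1.39 to 1.59). *Trim30d* (34.7, 53.3 and 92.3 CPM, ratio 1.41), *Trim21* (19.8, 29.5 and 46.9 CPM, ratio 1.24) and *Trim30b* (7.27, 10.8 and 16.9 CPM, ratio 1.22) were also more than 2-fold apart. *Trim25* was at 381, 413 and 488 CPM, a smaller ratio of 0.36 (0.32 to 0.40), and *Trim30a* at 230, 269 and 331 CPM, a ratio of 0.52 (0.47 to 0.58). *Trim23* did not differ beyond counting error (7.94, 8.45 and 7.41 CPM, ratio -0.10, -0.44 to 0.24), and *Trim6* neither (0.37, -0.06 to 0.80).

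Of the 14 higher members with at least 20 UMIs in LP4, 13 had a positive ratio between tertiles and the interval was above 0 for 10, with a median of 0.57. Of the other 28 members, 5 had a positive ratio and the interval was above 0 for 2, *Trim26* (0.49) and *Trim12c* (0.46), with a median of -0.41. Over the 13220 genes with at least 20 UMIs the ratio was positive for 3272, the interval was above 0 for 10.6%, and the median was -0.21. *Trim59* (-1.66, -2.13 to -1.21) and *Trim16* (-1.49, -2.32 to -0.71) were lower where interferon-stimulated genes were higher. Cluster F made up 8.16%, 4.5% and 1.48% of the cells from the lowest to the highest tertile, and cluster A 24.9%, 17.7% and 35.1%.

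Within each of clusters A to E the same ranking gave *Trim30c* ratios from 1.17 (C) to 1.62 (A), *Trim30d* from 0.80 (E) to 1.29 (C) and *Trim21* from 0.98 (D) to 1.74 (E), with 5 of 5 intervals above 0 for each. *Trim25* (0.16 to 0.38) and *Trim30a* (0.39 to 0.56) were also above 0 in 5 of 5. *Trim59* had an interval below 0 in 1 of the 5 and a positive ratio in 1. *Trim16*, with 55 and 19 UMIs in the lowest and highest tertiles of all LP4 cells, had an interval below 0 in C (-1.97, -3.75 to -0.49). Its intervals in A, B and E included 0, and D gave no ratio.

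**Figure D5:**
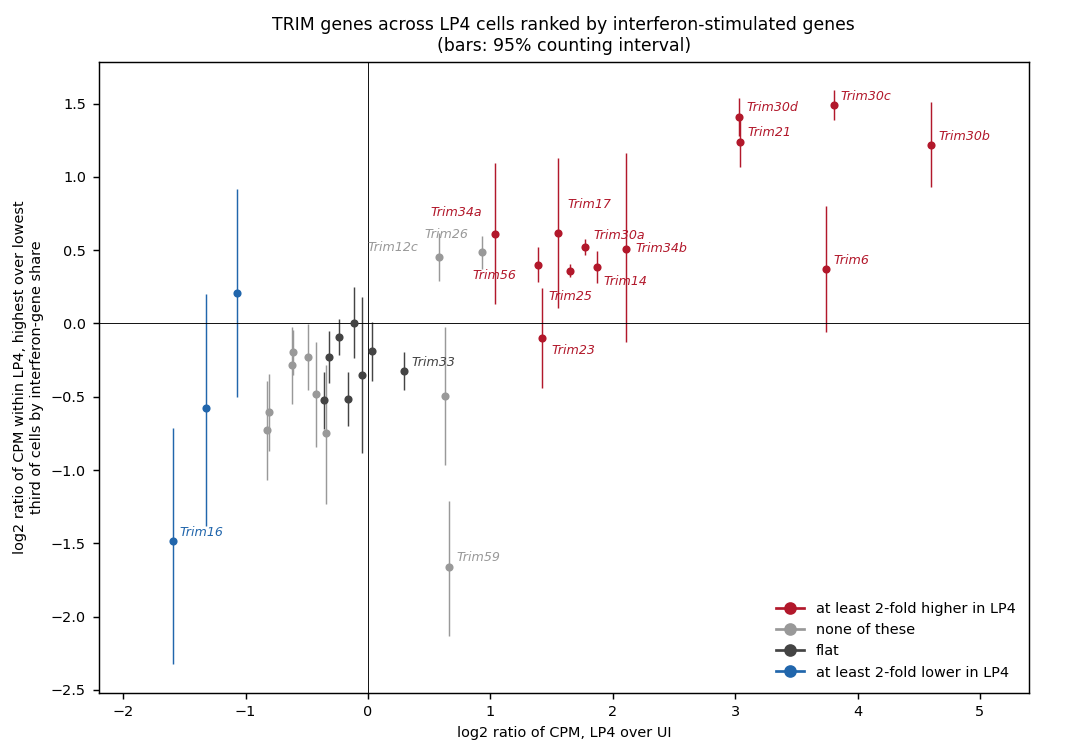
For TRIM genes with at least 100 UMIs in LP4, the log2 ratio of CPM of LP4 over UI (horizontal) against the log2 ratio of CPM, within LP4, of the highest over the lowest tertile of cells by the share of UMIs from 10 interferon-stimulated genes (vertical, bars for 95% counting intervals). *Trim30c*, *Trim30d*, *Trim21* and *Trim30b* lie at the upper right with vertical values of 1.22 to 1.49, the other members at least 2-fold higher in LP4 lie between -0.10 and 0.61, and *Trim59* and *Trim16* lie lowest.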

How the data were processed

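Single-cell RNA of BMDMs was sequenced with the Chromium Single Cell 3′ (v3.1) kit, as 1 library per condition. The authors counted reads with Cell Ranger against the mm10 mouse transcriptome, and the submitters' processing notes give version 7.1.0. The deposited values are UMI counts, not normalized, for each gene in each barcode called a cell, and they were checked to be whole numbers.

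Following the study, a barcode was kept if it had over 500 UMIs, over 500 genes and less than 5% of mitochondrial UMIs. This left 15806 cells of 6123 (UI), 5119 (LP1) and 5039 (LP4) barcodes, more than the study retained. The doublet caller scrublet marked 0, 1 and 1 cells and so had not worked, and doublets were removed only as an alternative. UMIs were summed over the cells of a library and divided by their total to give CPM. Intervals were exact, from the Poisson distribution for levels, the conditional binomial for ratios and the binomial for shares. A count of 0 was set to 3 for a ratio. Tested on simulated counts for 15154 genes, 100% of 200 changed genes had the right direction in each comparison, and the intervals held the true ratio for 95.4% to 95.7% of genes. The simulated counts had counting error only, as the intervals assume. This checks the calculation and not how the ratios would vary between cultures.

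For clustering, 2000 variable genes without TRIM, mitochondrial or ribosomal protein genes were taken from 5237 that had at least 200 UMIs and differed by less than 1.5 times between libraries. Genes were centred within each library, and the Leiden method was run on 20 neighbours in 30 principal components (resolution 0.5, seed 20). A cluster was named by at least 3 markers of a list among its 10 leading genes with at least 50 CPM, or as macrophage-like by 3 macrophage markers seen in at least 50% of its cells, unless its leading genes held more markers of another list.

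The members, the lists (domain classes, TRIM proteins with other names, RIG-I and MAVS signalling, activating and conjugating enzymes, interferon-stimulated genes, cell type markers) and the limits were chosen with earlier results of these data known. Named with values were members past 2-fold in any comparison, the 5 with the most UMIs and the deepest of each domain class. Others named, with values by cluster or tertile, were chosen after their values were seen. Gene positions are from GENCODE on GRCm38 and promoters from RefSeq (GRCm38.p6).

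Alternatives were all deposited barcodes, no mitochondrial limit, scaling by TMM or by the median of ratios, leaving mitochondrial and ribosomal protein genes out of CPM, means of cell shares, thinned cells, macrophage-like clusters alone, removal of the 5% of cells with the highest doublet scores, other minimums of UMIs and other limits. TMM factors came from edgeR 4.0.16 in R 4.3.3. Intervals used scipy 1.17.1 under Python 3.11.15, tables pandas 2.3.3 and numpy 2.4.6. Clusters used igraph 0.11.9, leidenalg 0.10.2, scikit-learn 1.9.0 and scanpy 1.11.5, sequences Biopython 1.88 and figures matplotlib 3.10.9. The study's integration, its pseudotime and its proteomics were not analysed here.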

Additional observations from a re-analysis of the deposited data

How the results depend on the processing

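No paired analysis was possible because each group has 1 library, and for the same reason no replicate could be left out. Across the 9 alternatives that change a ratio of LP4 to UI, the 22 members at least 2-fold higher or lower kept their direction wherever a ratio could be formed, which for *Trim46* and *Trim43c* was not so in thinned cells. The count of higher members was 12 to 19 over all alternatives, and 13 of the 15 kept the call in all 9, the exceptions being *Trim46* and *Trim34a*. Of the 7 lower members 3 kept it, and of the 8 flat members 3. With a minimum of 200 UMIs, which tests fewer genes, 3 members were lower in LP4 than in UI, 4 lower in LP4 than in LP1, 0 higher in LP1 and 1 lower in LP1. With a limit of 1.5-fold, 15 were lower in LP4 than in UI and 4 lower in LP1. Median-of-ratios scaling left 5 lower in LP4 than in LP1. For LP1 against UI, 2 members were higher by means of cell shares, in thinned cells and without a minimum, and 1 was lower with all deposited barcodes, without the mitochondrial limit and under TMM or median-of-ratios scaling, since *Trim17* lies at the limit. Flat in LP4 were 4 in thinned cells and 3 within a limit of 0.3. For the other changes the cause was not tested. Members under 50 UMIs have intervals of more than 2 log2 units, so depth limits what their ratios show.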

Other observations

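Of the 68 TRIM symbols, 22 did not reach 20 UMIs over the 3 libraries. *Trim42*, *Trim58*, *Trim75*, *Trim52* and *Trim40* had 0 UMIs in each library, which allows up to 3 UMIs per library by a one-sided limit. *Trim72*, known from membrane repair in muscle, had the most of them, with 3, 5 and 4 UMIs in UI, LP1 and LP4. *Trim38* and *Trim31*, both known from immune signalling, had 0, 5 and 1 and 0, 2 and 3 UMIs. At this depth no ratio was given for these genes.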
